A study of Mus musculus with 30 samples.

Results

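Copying the genome once per cell cycle needs a fixed set of proteins, and the genes that encode them are the subject here: 42 DNA replication and S phase genes, taken by their symbols from a table of 21841 mouse genes, with earlier results of these data known. They were followed in bulk RNA sequencing of 30 mammary tumours in 6 treatment groups of 5. All 42 passed the filter on low counts, along with 13663 genes in all. Every animal carried FVB/N-Tg(MMTV-PyVT)634Mul/J, a transgene in which the mouse mammary tumour virus promoter drives the polyoma middle T oncogene in mammary epithelium. The genotype was otherwise given as WT and the tissue as breast, with no age stated. Acute treatment lasted 72 h per the labels, although the study's own text gives a shorter interval and a lower gemcitabine dose, so both are printed here only as the labels have them. The groups were vehicle, 5-FU (5-fluorouracil, 40 mg/kg every 4 days), gemcitabine (64 mg/kg every 7 days), KCL-HO-1i (an inhibitor of the heme-degrading enzyme heme oxygenase-1, 25 µmol/kg daily) and the inhibitor with either chemotherapy (KCL-HO-1i/5-FU and, with the other drug, KCL-HO-1i/gemcitabine), all drugs given intraperitoneally.

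In G1 phase the origin recognition complex, with Cdc6 and Cdt1, loads the Mcm2 to Mcm7 ring onto origins, a step called licensing, and geminin (Gmnn) blocks Cdt1 once S phase has begun. Cdc45 and the GINS complex then join the ring and turn it into a moving helicase, after which the primase, the polymerases, the sliding clamp Pcna and its loader copy both strands, while Fen1 and Lig1 finish the lagging strand. Cyclin E and the transcription factor E2F1 drive entry into S phase, and E2F factors are known to switch on many of these genes together in proliferating tissue, mammary tumours included.

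Around their starts, some of these genes hold letters in the DNA that the choice of genes did not use. Of the 42 genes, 33 were listed in the RefSeq promoter table for GRCm38.p6, which holds 250 bases before and 50 after each listed start. Gmnn, Mcm4, Gins1, Gins2, Gins4, Prim2, Pole, Rfc2 and Ccne2 were not listed. Some listed starts, those of Orc1, Rfc1 and E2f1 among them, lay inside the gene's annotated span rather than at its outer end. The E2F letters searched were TTTGGCGC, TTTCGCGC, TTTCCCGC and TTTGCCGC on either strand, and at least 1 of them lay in the promoters of 14 of the 33 genes (42.4%). Over all 27025 listed genes the share was 2.61%, and over the 10701 listed genes that were also tested for expression it was 4.48%. Promoters on 1 chromosome, which holds none of the 42 genes, were left out of these listed genes. Within the 250 bases before the start alone the share was 24.2% of the 33, against 2.16% of all listed and 3.73% of the tested genes. The pentamer CCAAT, the letters bound by NF-Y, occurred in 20 of the 33 (60.6%) against 41.1% of all listed and 42.5% of the tested genes, and TTTGAA, the core of the cell cycle homology region of mitotic genes, occurred in 5 (15.2%) against 20.2% of all listed and 14.2% of the tested genes. These matches are letters in a window and not measured binding.

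**Figure D1:**
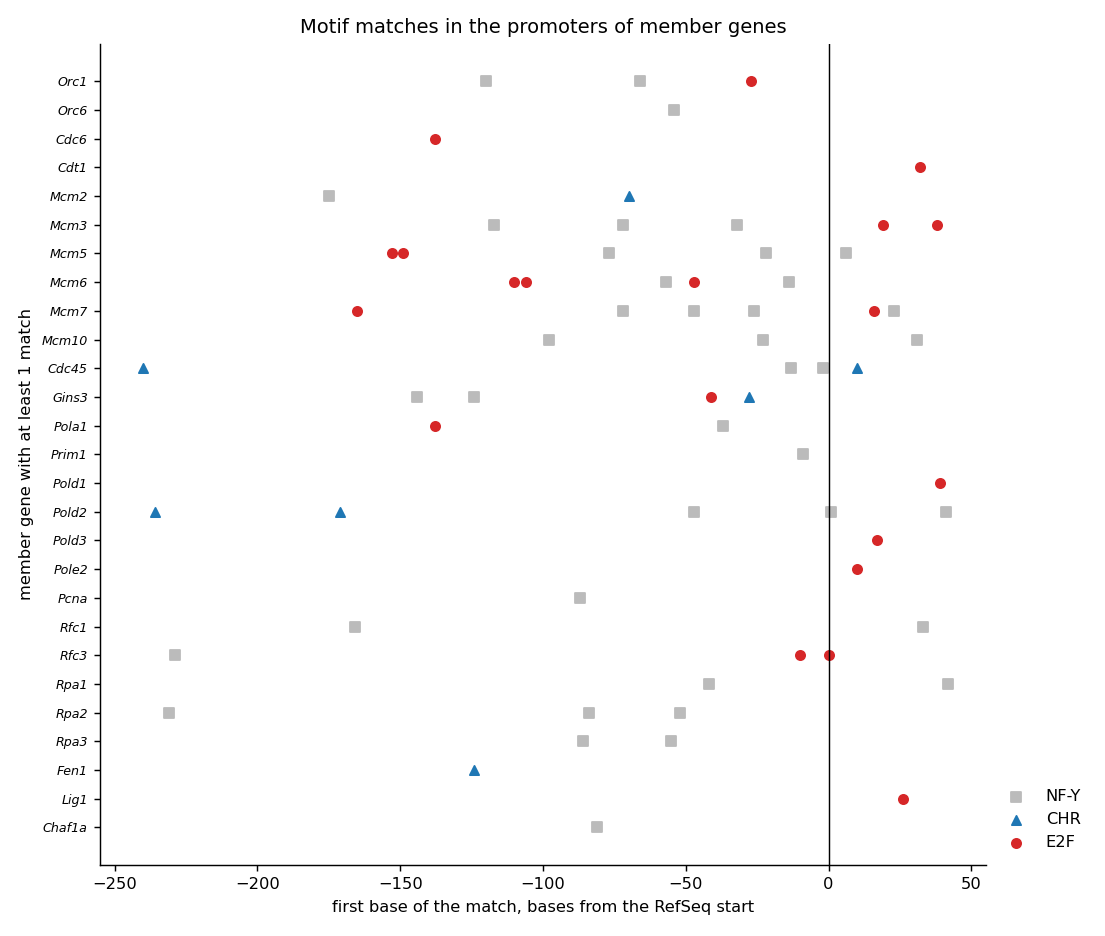
Positions of the E2F (circles), NF-Y (squares) and cell cycle homology region (triangles) letters in the listed promoters of the replication genes that hold at least 1 match, in bases from the annotated start at 0. The E2F matches of the 14 genes lie on both sides of the start.

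The sequences of 4 genes are shown as examples with and without the E2F letters. Mcm5 and Mcm6 followed the other replication genes most closely over the 30 tumours, and Orc1 held 1 match before its start. Fen1 had the smallest p-value in several comparisons and held none of the E2F letters. Whether the letters go with likeness between genes was not tested. Prim1, also among the closest (r = 0.97 with the other genes), held none, and Pold3, the least close (r = 0.46), held 1 match. Each line gives 250 bases before the listed start from RefSeq, 5′ to 3′ on the gene's strand, with E2F and CCAAT letters in capitals in either orientation. For Orc1 that start lies inside the gene's annotated span. The locations are chr8:75109259-75109508 on the plus strand for Mcm5, chr1:128359706-128359955 on the minus strand for Mcm6, chr4:108579204-108579453 on the plus strand for Orc1 and chr19:10203922-10204171 on the minus strand for Fen1, 1 of the listed starts of that gene.
Mcm5: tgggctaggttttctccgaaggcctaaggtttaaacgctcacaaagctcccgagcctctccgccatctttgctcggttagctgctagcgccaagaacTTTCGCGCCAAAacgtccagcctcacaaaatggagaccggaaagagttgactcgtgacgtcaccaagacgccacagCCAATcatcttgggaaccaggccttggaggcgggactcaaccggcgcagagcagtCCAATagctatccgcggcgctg
Mcm6: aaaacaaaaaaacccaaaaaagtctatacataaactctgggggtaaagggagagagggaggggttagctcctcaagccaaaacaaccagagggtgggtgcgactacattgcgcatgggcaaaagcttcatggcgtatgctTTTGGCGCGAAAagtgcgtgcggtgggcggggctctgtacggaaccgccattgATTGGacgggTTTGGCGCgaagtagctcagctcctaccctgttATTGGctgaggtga
Orc1: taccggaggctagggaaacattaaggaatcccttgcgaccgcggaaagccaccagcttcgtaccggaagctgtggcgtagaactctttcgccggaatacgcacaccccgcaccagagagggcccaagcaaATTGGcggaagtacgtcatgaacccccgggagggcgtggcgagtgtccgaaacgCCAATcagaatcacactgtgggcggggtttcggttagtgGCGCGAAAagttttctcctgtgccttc
Fen1: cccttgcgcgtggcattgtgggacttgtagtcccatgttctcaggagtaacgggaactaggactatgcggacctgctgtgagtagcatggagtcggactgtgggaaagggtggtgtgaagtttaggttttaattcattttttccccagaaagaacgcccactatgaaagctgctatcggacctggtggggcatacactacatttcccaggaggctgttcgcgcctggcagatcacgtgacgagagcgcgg
In Mcm5 a pair of overlapping matches on opposite strands begins 153 and 149 bases before the start and forms 1 run of capitals. In Mcm6 a like pair begins 110 and 106 bases before the start, and a single match follows at 47 bases before it. Orc1 has 1 match, 27 bases before its start.

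The libraries held between 10067577 and 13622264 estimated read counts, of which the 42 genes took 0.0914% to 0.285%. Values are given in CPM, that is, counts scaled to the normalised total of the library. The lowest estimated count of any of the genes in any library was 13, and no pair of libraries within a group was as alike as sampling noise alone would make it, the closest pair having a chi-square of 19.9 per degree of freedom. The luminal markers Epcam, Krt8, Krt18 and the other 7 of the list were high in every group, with group mean levels of 8.27 to 8.64 log2 CPM. Marker genes of adipocytes and skeletal muscle differed widely between tumours, from -1.16 to 9.05 and from -2.11 to 10.21 log2 CPM. The study's text gives cohorts of 5 mice and tumours, and p-values measure the spread between them. The labels also give each tumour a code whose number, of unstated meaning, recurs across groups. Vehicle shares a number with no group but KCL-HO-1i/gemcitabine, and gemcitabine shares none with KCL-HO-1i/gemcitabine. Values from a fit with that number as a factor stand beside the results they change. Counts from fits that leave out a tumour or add a factor or covariate are given without the share of all genes in that fit. Bulk RNA cannot tell fewer dividing cells from less replication mRNA per cell.

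In vehicle tumours the clamp Pcna stood far above the rest, at 114 ± 14 CPM per kb of transcript (SD, n = 5). Length was that of each gene's longest annotated protein-coding transcript, which need not be the one expressed, so the ranking depends on it. The helicase subunit Mcm7 followed with 32.2 ± 4.98, close to the single strand binding subunit Rpa3 (30.9 ± 7.85) and the GINS subunit Gins4 (30.7 ± 5.37), and these 3 did not differ beyond their spread. At the lower end were the catalytic subunit of polymerase epsilon, Pole, with 1.54 ± 0.134 CPM per kb, and the origin recognition subunit Orc1 with 1.91 ± 0.437.

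The replication genes moved together from tumour to tumour. Their joint level, the mean of the 42 log2 CPM values in a tumour, spanned 1.9 log2 units over the 30 tumours, against a pooled SD within groups of 0.335. The level was 4.81, 5.06, 5.10, 4.66 and 5.05 in the 5 vehicle tumours, 5.01, 5.08, 4.91, 5.24 and 3.97 with 5-FU, and 5.53, 5.09, 5.78, 4.73 and 5.06 with gemcitabine. With KCL-HO-1i alone it was 5.12, 4.79, 4.73, 4.93 and 4.85, with KCL-HO-1i/5-FU 4.47, 3.88, 3.98, 4.83 and 4.42, and with KCL-HO-1i/gemcitabine 5.02, 4.99, 4.84, 4.53 and 4.78. The KCL-HO-1i/5-FU group was the lowest, with 3 of its 5 tumours at or under 4.42 and the fourth replicate at 4.83, inside the range of the vehicle group. The fifth 5-FU tumour was as low as the lowest KCL-HO-1i/5-FU tumours, while gemcitabine held both the highest tumour, the third, and 1 of the lower ones, the fourth.

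**Figure D2:**
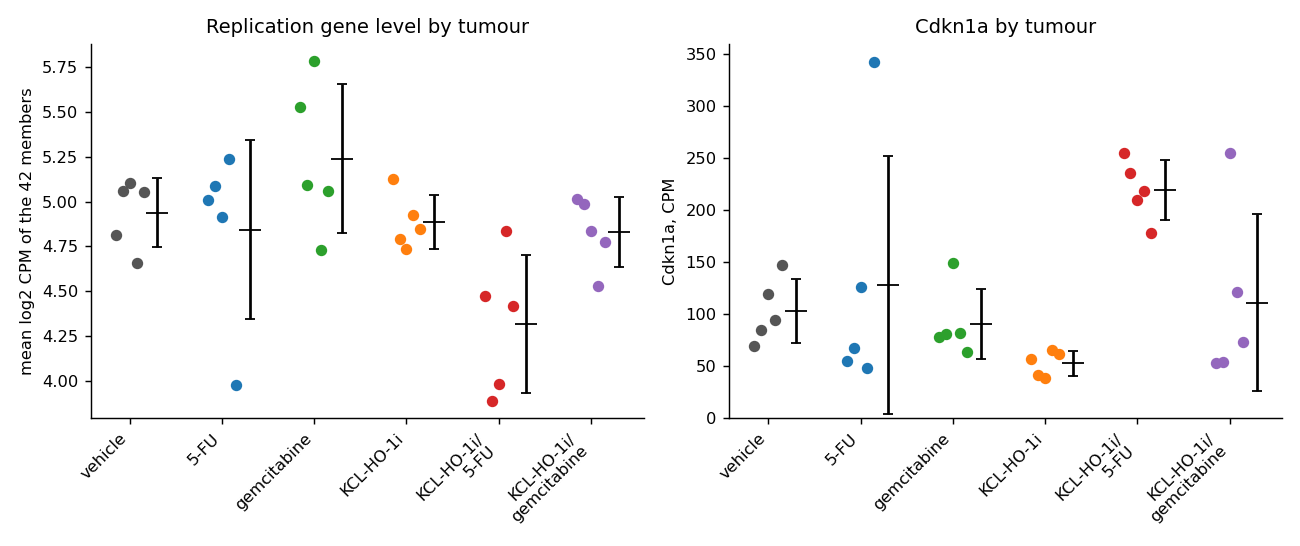
Joint level of the 42 replication genes (mean log2 CPM) and CPM of the cell cycle inhibitor gene Cdkn1a in each tumour, by treatment group; dots are tumours and bars the mean and SD of 5. The KCL-HO-1i/5-FU tumours lie lowest in the level, with a mean of 4.32 against 4.94 for vehicle, and between 178 and 256 CPM for Cdkn1a.

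Counted gene by gene, the same tumours stood out. In KCL-HO-1i/5-FU replicates 1 to 5, 5, 0, 0, 18 and 1 of the 42 genes lay above their own median over all tumours, compared with 18, 37, 36, 5 and 35 in vehicle replicates 1 to 5. The third gemcitabine tumour had all 42 above, and the fifth 5-FU tumour had 1. Vehicle was therefore not uniform either, since the fourth tumour of that group had 5.

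**Figure D3:**
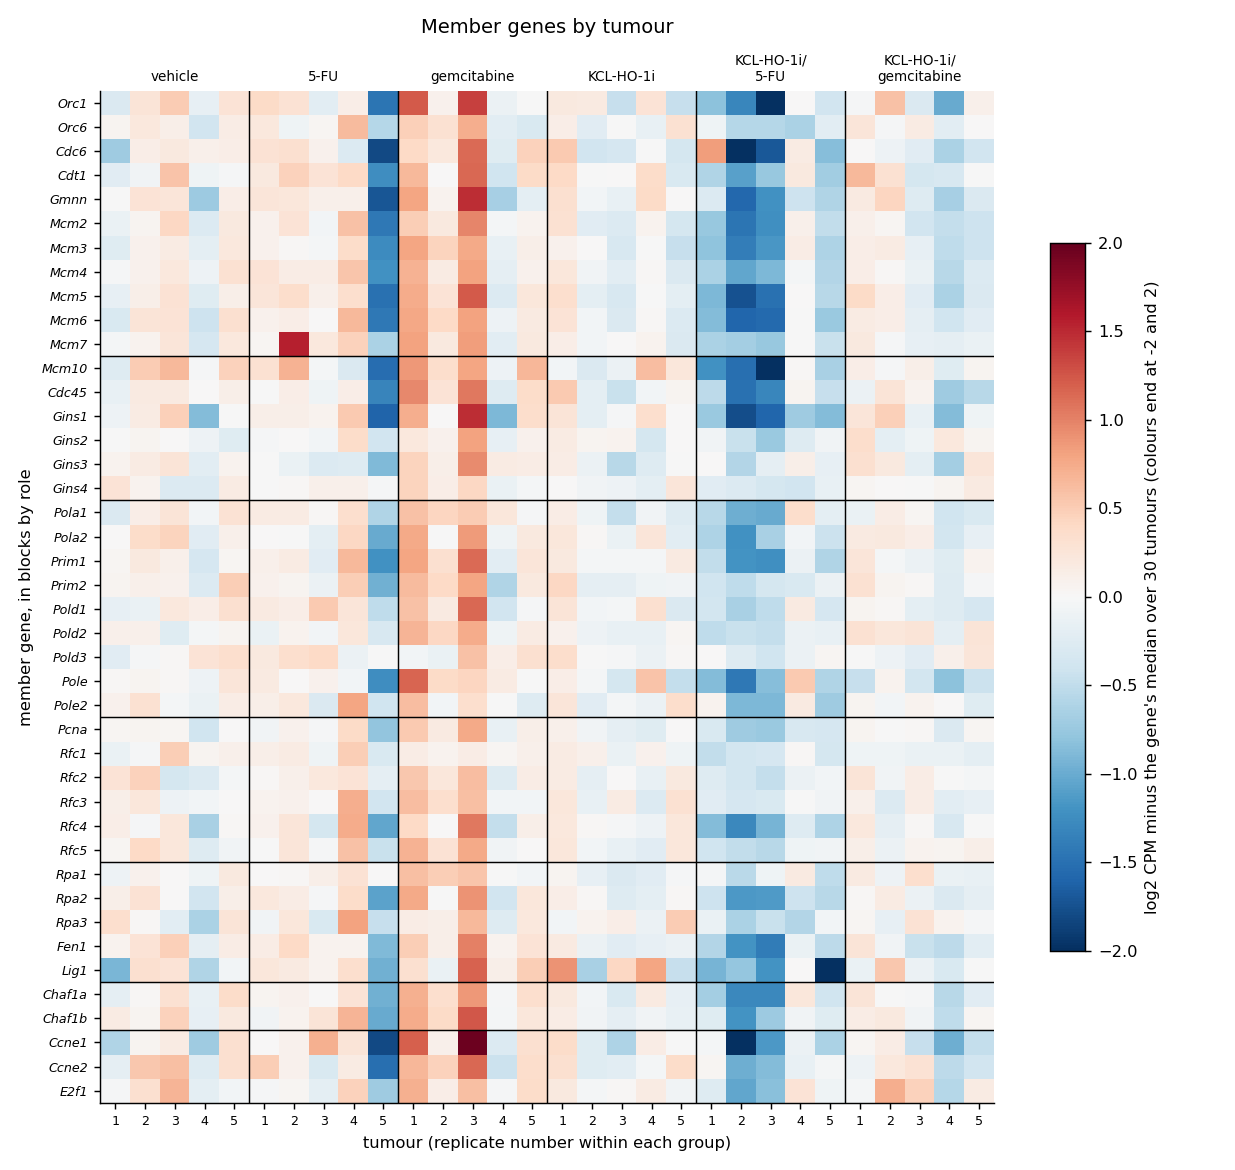
Log2 CPM of each replication gene minus that gene's median over the 30 tumours, with genes in rows by role, tumours in columns by group and colours ending at -2 and 2. The columns of KCL-HO-1i/5-FU replicates 2 and 3 and of 5-FU replicate 5 are low across nearly all genes, and the column of gemcitabine replicate 3 is high.

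The likeness of each gene to the mean of the other 41 was highest for Mcm5 (Pearson r = 0.98), Mcm6, Prim1 and Mcm4 (each 0.97), over 30 tumours. It was above 0.9 for 19 of the 42 genes and above 0.8 for 31, and the genes that followed least were Pold3 (0.46), Lig1 and Gins4 (each 0.60) and Rpa3 (0.62). Among the genes outside the set, 380 (2.79%) had r above 0.8 with the joint level. These correlations describe the tumours, which share library totals and treatment groups. Within groups the spread was widest for Lig1, DNA ligase I (SD 0.79 log2 CPM), the cyclin E gene Ccne1 (0.71) and the licensing factor Cdc6 (0.69), and narrowest for Gins4 (0.17), the large clamp loader subunit Rfc1 (0.18) and the polymerase delta subunit Pold2 (0.21). The median was 0.397 over the 42 genes and 0.331 over all genes tested.

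Single values broke the common pattern in a few tumours. Lig1 was at 1.96 CPM in the fifth KCL-HO-1i/5-FU tumour, 3.51 log2 units below what that tumour's shift in the other genes would place it at, while the other 4 tumours of the group held 17.1, 19.1, 14.2 and 32.8 CPM. Mcm7 reached 273 CPM in the second 5-FU tumour, 1.43 log2 units above its tumour's shift, and Cdc6 reached 28.9 CPM in the first KCL-HO-1i/5-FU tumour, 1.28 above. These 3 tumours weigh on the values of their genes below.

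The first question was what each agent alone did to the replication genes. With 5-FU, an inhibitor of thymidylate synthesis, the genes neither gained nor lost as a set: the median log2 fold change against vehicle was -0.01, from -0.38 to 0.47, beside 0.00 over all genes tested. No gene of the 42 passed an adjusted p of 0.05 in edgeR's quasi-likelihood test (0% of all genes did), none had an unadjusted p under 0.05 (3.89% of all genes), and DESeq2 and limma-voom also called none of the 42. Mcm7 had the smallest p: its 5-FU values were 95.5, 273, 108, 127 and 59.9 CPM against 90.2, 96.9, 109, 73.1 and 107 in vehicle, so the groups overlapped and the difference of 0.47 ± 0.26 (SE; 95% interval -0.06 to 1.01; edgeR adjusted p = 0.999) rested on the second tumour. Without that tumour it was 0.03. Gins3, a GINS subunit, differed by -0.38 ± 0.22 (95% interval -0.83 to 0.07), from 6.29, 6.76, 7.21, 5.17 and 6.32 CPM in vehicle to 5.94, 5.44, 4.92, 4.97 and 3.19 CPM with 5-FU. The median of the 42 genes was -0.14 without the fourth 5-FU tumour and 0.13 without the fifth, and -0.45 with the tumour code as a factor.

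With gemcitabine, a nucleoside analogue that stalls replication forks, 41 of the 42 genes had a higher mean than in vehicle, with a median difference of 0.33 log2 units beside 0.03 over all genes tested. None passed the adjusted threshold by edgeR, DESeq2 or limma-voom (0% of all genes by edgeR). At an unadjusted p under 0.05, 4 were higher, Pold2, Ccne1, Rpa1 and Pcna, which is 4 of 42 against 2.05% of all genes. Pold2 was at 46.9, 46.4, 36.8, 42.3 and 44.9 CPM in vehicle and at 69.6, 58.1, 73.1, 41.0 and 48.5 CPM with gemcitabine, a difference of 0.42 ± 0.14 (SE, n = 5 per group; edgeR adjusted p = 0.941). Ccne1, which encodes the cyclin that drives S phase entry, ran from 8.55, 13.7, 14.6, 7.97 and 16.4 CPM in vehicle to 30.3, 14, 51.4, 10.8 and 16.3 CPM. Its difference of 1.00 ± 0.42 (edgeR adjusted p = 0.941) came from the first and the third tumours, with the other 3 inside the vehicle range, and was 0.54 without the third. Pcna was at 258, 201, 303, 161 and 193 CPM with gemcitabine against 184, 185, 184, 136 and 179 in vehicle, a difference of 0.37 ± 0.17. The single strand binding subunit Rpa1 differed by 0.32 ± 0.14. The median of the 42 genes was 0.16 without the third gemcitabine tumour and 0.46 without the fourth, with 1 and 16 genes at an unadjusted p under 0.05. That count was also 1 without the fourth vehicle tumour, 2 without the first gemcitabine tumour and 7 without the fifth. With the tumour code as a factor the median was -0.15 and no gene of the 42 was higher at that p.

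KCL-HO-1i alone left the genes near vehicle. The median difference was -0.07, beside -0.01 over all genes, with 0 of 42 genes past the adjusted threshold in edgeR (0% of all genes), DESeq2 or limma-voom, and 0 at an unadjusted p under 0.05, where 9.43% of all genes lay. The flap endonuclease gene Fen1, which had the smallest p, was at 60.8, 70.1, 80.7, 51.1 and 64.2 CPM in vehicle and at 65.42, 53.5, 49.2, 51.5 and 53.6 with KCL-HO-1i. The groups overlapped and the difference was -0.26 ± 0.22 (95% interval -0.72 to 0.21; edgeR adjusted p = 0.831). For Pola1, the catalytic subunit of the primase-associated polymerase alpha, it was -0.22 ± 0.21, from 24.8, 33.1, 36.4, 29.2 and 37.3 CPM to 33.6, 28.5, 21.7, 28.8 and 25.4 CPM. The median ran from -0.14 (without the first KCL-HO-1i tumour) to -0.036 (without the third), was -0.12 without the fourth vehicle tumour and was -0.15 with the tumour code as a factor.

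KCL-HO-1i/5-FU was where the replication genes lay lowest. All 42 had a lower mean than in vehicle, with a median difference of -0.55, a range of -1.22 to -0.19 and a median over all genes tested of 0.01. At an unadjusted p under 0.05, 24 of the 42 were lower, where 7.84% of all genes were. None passed the adjusted threshold in edgeR (0% of all genes), the smallest adjusted p being 0.119. DESeq2 called 3 of the 42, Mcm10, Rfc1 and Fen1, among 2.88% of the genes it tested, and limma-voom with sample weights called 7, Mcm4, Mcm6, Mcm10, Pola2, Rfc1, Rpa2 and Fen1, among 1.24%.

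By role, licensing genes had a median difference of -0.70 with 8 of 11 at an unadjusted p under 0.05, and helicase activation genes -0.50 with 4 of 6. The polymerases stood at -0.46 (4 of 9), the clamp and its loader at -0.40 (4 of 6), single strand binding and lagging strand genes at -0.74 (2 of 5) and the chromatin assembly genes Chaf1a and Chaf1b at -0.63 (both). The G1/S drivers Ccne1, Ccne2 and E2f1 had a median of -0.55 with 0 of 3 at an unadjusted p under 0.05. Every role thus lay on the same side, and whether roles differed from one another was not tested.

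Fen1 was at 38.7, 25.1, 21.9, 52.7 and 40.2 CPM in the KCL-HO-1i/5-FU tumours, of which only the fourth reached into the vehicle range of 51.1 to 80.7. Its difference from vehicle was -0.87 ± 0.23 (SE; 95% interval -1.34 to -0.40; unadjusted p = 0.000671, edgeR adjusted p = 0.119). Mcm10, which helps to start the helicase, had 11, 18.7, 20.6, 12.9 and 18.1 CPM in vehicle and 5.58, 4.52, 3.08, 13.3 and 8.30 CPM in KCL-HO-1i/5-FU, again with the fourth tumour alone inside the vehicle range. It had the largest difference of the 42 genes, -1.22 ± 0.33 (edgeR adjusted p = 0.119). The replicative helicase subunit Mcm2 was at 58.4, 66.3, 85, 52.8 and 73 CPM in vehicle and at 37.8, 23.1, 27.3, 68.8 and 45.3 CPM, a difference of -0.73 ± 0.28 (adjusted p = 0.187). Pcna was at 144, 109, 107, 142 and 141 CPM, so that 3 of the 5 values overlapped the lowest vehicle tumour at 136, and the difference was -0.43 ± 0.17 (adjusted p = 0.186). For E2f1 the vehicle values were 14, 17.8, 22.9, 12.5 and 13.7 CPM and the KCL-HO-1i/5-FU values 11.8, 6.82, 7.93, 17.3 and 13.4 CPM, which overlapped, with a difference of -0.50 ± 0.25 (edgeR adjusted p = 0.298).

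Rpa2, a subunit of the single strand binding complex, was the 1 gene of the 42 whose 5 KCL-HO-1i/5-FU values all lay below all 5 vehicle values, which 2.07% of all genes did. Vehicle held 44.9, 50.3, 41.3, 31.6 and 44.8 CPM and KCL-HO-1i/5-FU 31.1, 18.5, 18.7, 30.9 and 28 CPM. The difference was -0.74 ± 0.23 (adjusted p = 0.122). No gene of the 42 had all 5 values above vehicle, where 1.53% of all genes did.

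**Figure D4:**
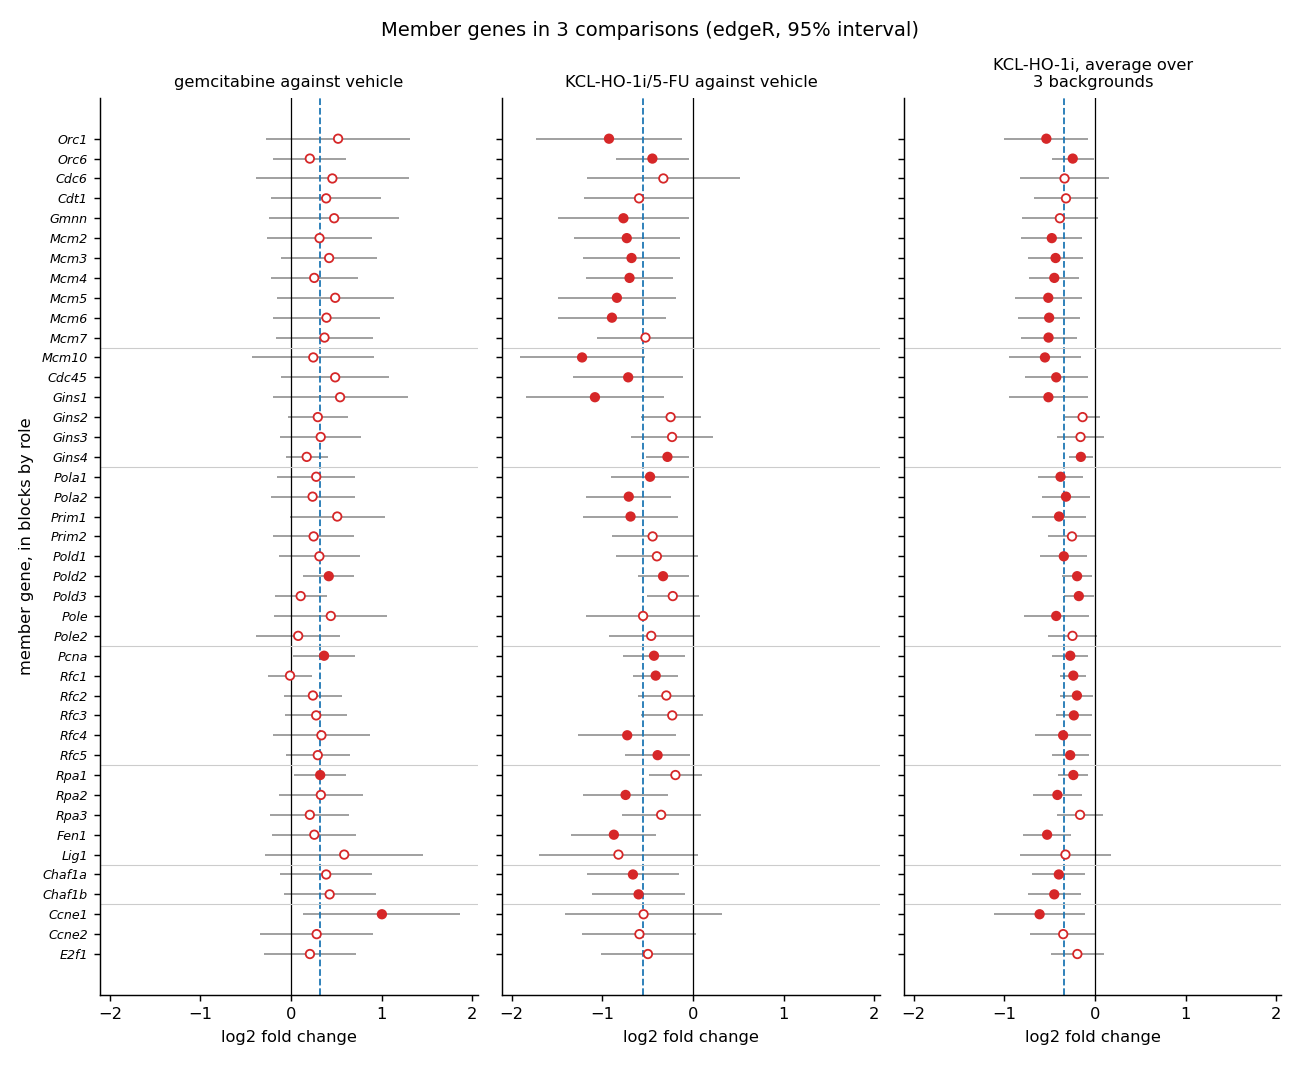
Log2 fold changes of the 42 replication genes with 95% intervals from edgeR in gemcitabine against vehicle, KCL-HO-1i/5-FU against vehicle and the KCL-HO-1i average over its 3 backgrounds; filled points have an unadjusted p under 0.05 and dashed lines mark the medians of 0.33, -0.55 and -0.35. The points lie mostly right of 0 for gemcitabine and left of 0 in the other panels.

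How many genes were called moved with single tumours. Without the fourth KCL-HO-1i/5-FU tumour 7 of the 42 genes passed the adjusted threshold in edgeR and the median was -0.72. Without the second KCL-HO-1i/5-FU tumour none did and the median was -0.43. That fit had 15 genes lower at an unadjusted p under 0.05, the fewest with 1 tumour left out. The most, 31, came without the fourth vehicle tumour. The tumour code as a factor gave a median of -0.55, with 0 of 42 genes at that p. The share of all genes in these fits is not given here, so the counts are not set against it.

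KCL-HO-1i/gemcitabine stayed near vehicle, with a median of -0.11 beside 0.02 over all genes and 0 of 42 past the adjusted threshold in edgeR (0% of all genes), DESeq2 or limma-voom. No gene of the 42 had an unadjusted p under 0.05, although 19.8% of all genes did. Rfc1 was the closest: it held 73.1, 78.5, 112, 82.5 and 86.1 CPM in vehicle and 74.9, 75.3, 72.5, 73 and 70.1 CPM with the combination. The last 3 of these lay below the lowest vehicle value, by little, and the difference was -0.24 ± 0.12 (95% interval -0.49 to 0.01; edgeR adjusted p = 0.264). Fen1, with 69, 55.1, 42.4, 40.2 and 49.9 CPM, differed from vehicle by -0.35 ± 0.23 (adjusted p = 0.42). The difference of Rfc1 was -0.16 without the third vehicle tumour. The median of the 42 genes ran from -0.20 (without the fourth vehicle tumour) to -0.063 (without the fourth tumour of the combination), with -0.17 and -0.19 without the first or the second of the combination, and was -0.075 with the tumour code as a factor.

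The second question was what KCL-HO-1i changed when each background was compared with and without it. When the difference was averaged over the 3 backgrounds (vehicle, 5-FU, gemcitabine), all 42 genes were lower with KCL-HO-1i, with a median of -0.35, a range of -0.61 to -0.14 and a median over all genes of 0.00. At an unadjusted p under 0.05, 31 of 42 were lower against 9.22% of all genes, while edgeR's adjusted threshold was passed by none of the 42 and by 8 genes in all (0.0586%). Fen1 came nearest, at -0.53 ± 0.13 (95% interval -0.80 to -0.26; edgeR adjusted p = 0.0525), ahead of Rfc1 at -0.24 ± 0.07 (adjusted p = 0.0584). DESeq2 called 8 of the 42, Mcm4, Mcm6, Mcm7, Pola1, Rfc1, Rpa2, Fen1 and Chaf1b, where it called 8.16% of the genes it tested. limma-voom called 7, Mcm3, Mcm4, Mcm10, Pola1, Pole, Rfc1 and Fen1, where it called 1.92%. Mcm2 differed by -0.48 ± 0.16, Pcna by -0.27 ± 0.10 and E2f1 by -0.19 ± 0.14. With the tumour code as a factor the median of the average was -0.04, and 0 of the 42 genes were lower at an unadjusted p under 0.05. The count in edgeR ran from 0 to 16 of 42 when single tumours were left out, with 16 without the fourth KCL-HO-1i/5-FU tumour, 15 without the fifth 5-FU tumour and 9 without the fifth gemcitabine tumour. It was 3 without the first KCL-HO-1i tumour (Mcm4, Rfc1 and Fen1), and Fen1 alone was called without the fifth KCL-HO-1i, the fifth KCL-HO-1i/5-FU or the fourth KCL-HO-1i/gemcitabine tumour. These counts stand without the share of all genes in the same fits.

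Each background gave its own part of that average. The part from the vehicle background, given above for KCL-HO-1i alone, was small, so by the medians the average drew mostly on the 5-FU and gemcitabine backgrounds. In the 5-FU background the median difference of KCL-HO-1i/5-FU from 5-FU was -0.50, beside 0.02 over all genes, with 28 of 42 genes lower at an unadjusted p under 0.05 (5.26% of all genes) and 0 past the adjusted threshold in edgeR (0% of all genes). DESeq2 called Mcm7 alone of the 42, and limma-voom none. The share of all genes that DESeq2 called in this comparison is not given here, so that call is not set against it. Mcm7 fell short in edgeR at -0.997 ± 0.26 (95% interval -1.54 to -0.46; adjusted p = 0.245), from the 5-FU values above to 59.5, 57.8, 54.3, 92.2 and 68.0 CPM, and without the second 5-FU tumour the difference was -0.55. Rfc1 was at 86.4, 89.6, 75.6, 112 and 64.9 CPM with 5-FU and at 56.8, 61.6, 63, 81.2 and 62.2 CPM with the combination, a difference of -0.40 ± 0.12 (edgeR adjusted p = 0.274). All but the fourth value lay below every 5-FU tumour. Gins4 was the 1 gene with all 5 values below all 5 of 5-FU (0.629% of all genes), at 35.1, 34.3, 32.4, 31.7 and 37.1 CPM against 41.2, 41.7, 44.1, 44.4 and 40.5, and differed by -0.31 ± 0.11. The count of 28 dropped to 15 and 12 without the second or the fourth 5-FU tumour, and to 15 and 14 without the second or the third tumour of the combination. The fit with the tumour code gave 1, and a median of -0.055.

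In the gemcitabine background, 15 of 42 genes were lower with KCL-HO-1i at an unadjusted p under 0.05 (6.51% of all genes), the median was -0.46 and 0 passed the adjusted threshold in edgeR (0% of all genes), DESeq2 or limma-voom. Pole had 24, 13.9, 14.4, 12 and 10.53 CPM with gemcitabine and 7.64, 11.2, 8.18, 5.95 and 7.87 CPM with the combination, where only the second tumour overlapped. The difference was -0.88 ± 0.30 (95% interval -1.50 to -0.25; edgeR adjusted p = 0.288). Ccne1, at 13.5, 14.5, 9.5, 6.56 and 9.40 CPM with the combination, differed from gemcitabine by -1.20 ± 0.42 (adjusted p = 0.288), and by -0.74 without the third gemcitabine tumour. The median of the 42 genes was -0.26 without that tumour, and 0.074 with the tumour code as a factor, where no gene was lower at an unadjusted p under 0.05 and Pole and Ccne1 turned to 0.61 and 0.10. The count of 15 became 6, 1, 30 and 23 without the first, the third, the fourth or the fifth gemcitabine tumour, and 4 and 8 without the fourth or the fifth tumour of the combination.

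Interaction terms asked whether KCL-HO-1i acted differently in a chemotherapy background than alone. For 5-FU, 4 of 42 genes had an unadjusted p under 0.05, all lower (Mcm7, Rfc4, Lig1 and Gins1; 4.51% of all genes), with a median of -0.43 and none past the adjusted threshold (0% of all genes). Mcm7 had an interaction of -0.93 ± 0.37 and the clamp loader subunit Rfc4 one of -0.91 ± 0.37 (edgeR adjusted p = 0.502 and 0.505), and that of Mcm7 was -0.47 without the second 5-FU tumour. For gemcitabine only Ccne1 had an unadjusted p under 0.05 (1 of 42, against 0.695% of all genes), at -1.26 ± 0.59 (edgeR adjusted p = 1; -0.80 without the third gemcitabine tumour), while Pole had -0.84 ± 0.43. Without single tumours the counts ran from 2 (the fourth 5-FU tumour) to 19 (the fifth) for 5-FU, with 16 without the fourth KCL-HO-1i/5-FU tumour and 7 without the third 5-FU tumour, and from 0 to 5 (the fourth gemcitabine tumour) for gemcitabine. The median of the gemcitabine interaction was -0.37 (-0.20 without the third gemcitabine tumour) and none passed the adjusted threshold in edgeR (0% of all genes). Adding the tumour code turned the medians of both interactions, to 0.14 for 5-FU and 0.21 for gemcitabine. A difference in the action of KCL-HO-1i between backgrounds was therefore not shown for any gene of the 42 by edgeR, nor by DESeq2 or limma-voom.

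The third question was what chemotherapy added to KCL-HO-1i. KCL-HO-1i/5-FU lay below KCL-HO-1i alone by a median of -0.47, beside 0.01 over all genes, with 23 of 42 genes lower at an unadjusted p under 0.05 (9.43% of all genes) and 0 past the adjusted threshold in edgeR (0% of all genes). DESeq2 called Gins1 of the 42, and limma-voom none. The share of all genes called by DESeq2 here is not given, so that call is not set against it. Gins1, a subunit of the helicase-activating GINS complex, was at 16.9, 12.2, 13.8, 17.8 and 14.2 CPM with KCL-HO-1i and at 8.37, 4.00, 4.58, 8.56 and 7.67 CPM with the combination. The groups did not overlap, and the difference was -1.17 ± 0.37 (edgeR adjusted p = 0.126). Rfc4 was at 34.4, 30.1, 29.3, 27.6 and 34.6 CPM and at 16.1, 12.1, 15.5, 24.9 and 19.3 CPM, again without overlap, a difference of -0.83 ± 0.26 (adjusted p = 0.128). In all, 6 of the 42 genes had every combination tumour below every KCL-HO-1i tumour (2.55% of all genes): Gmnn, Gins1, Prim1, Pcna, Rfc4 and Rpa2. None lay wholly above, where 1.86% of all genes did. The count of 23 became 12 without the first KCL-HO-1i tumour and 10 without the second or the third tumour of the combination. A fit with the tumour code gave 1, and a median of -0.29.

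KCL-HO-1i/gemcitabine against KCL-HO-1i gave a median of -0.04 (-0.11 to 0.02 with single tumours left out, and 0.09 with the tumour code as a factor), no gene of the 42 at an unadjusted p under 0.05 (2.66% of all genes) and none past the adjusted threshold in edgeR (0% of all genes), DESeq2 or limma-voom. Pold2 differed by 0.23 ± 0.14, with 53.7, 50.7, 52.0, 37.9 and 51.8 CPM in the combination against 46.3, 40.4, 39.3, 39.2 and 44.6 CPM. Pole differed by -0.40 ± 0.30 (95% interval -1.02 to 0.23), from 11.7, 10.4, 8.29, 15.8 and 7.59 CPM, and by -0.23 without the fourth KCL-HO-1i tumour. All of these comparisons reuse the same 6 groups, so their values are not independent of one another.

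Genes that act beside the 42 were followed in fixed lists. Of 72 further genes of the pathway, 33 were lower and 4 higher in KCL-HO-1i/5-FU than in vehicle at an unadjusted p under 0.05, with a median of -0.38, and none passed the adjusted threshold. Of all genes tested 7.84% were lower and 9.79% higher at that p, with a median of 0.01. Origin and firing factors, which recruit and trigger helicases, had 7 of 14 lower, fork and loader genes 6 of 16, nucleotide supply genes 4 of 8, replicated chromatin genes 7 of 8 and G1/S regulators 9 of 17, with 1 higher, the D-type cyclin Ccnd2. Rrm2, the small subunit of ribonucleotide reductase, which makes deoxynucleotides, was at 39.5 ± 28.5 CPM in KCL-HO-1i/5-FU and 91.2 ± 31.4 in vehicle (SD, n = 5), a difference of -1.21 ± 0.44 (SE; edgeR adjusted p = 0.171). Ccnd1, the cyclin of G1 that acts before cyclin E, had 234 ± 74.398 and 288 ± 131 CPM, a difference of -0.30 ± 0.29. In the KCL-HO-1i average 36 of the 72 were lower and 3 higher (Ccnd2, Rb1 and Pold4, a polymerase delta subunit), with a median of -0.27, beside 9.22% lower and 13.7% higher of all genes.

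Among 9 genes that restrain S phase entry, 0 were lower and 3 higher in KCL-HO-1i/5-FU than in vehicle at an unadjusted p under 0.05: the retinoblastoma gene Rb1 and the CDK inhibitor genes Cdkn1a and Cdkn1c, where 9.79% of all genes were higher. Cdkn1a, a p53 target, was at 69.9, 85.2, 120, 94.7 and 148 CPM in vehicle, 57.2, 41.7, 38.4, 65.5 and 61.8 with KCL-HO-1i and 256, 236, 210, 219 and 178 in KCL-HO-1i/5-FU. The last group lay wholly above both others. It differed from vehicle by 1.08 ± 0.44 (edgeR adjusted p = 0.2) and from KCL-HO-1i by 2.05 ± 0.45 (adjusted p = 0.102), and the interaction of KCL-HO-1i with 5-FU was 1.75 ± 0.62 (adjusted p = 0.482). With 5-FU alone Cdkn1a was at 55.6, 68.0, 126, 48.1 and 343 CPM, and the tumour at 343 was the one whose replication level was lowest in that group, 3.97. The third KCL-HO-1i/gemcitabine tumour also had much Cdkn1a, 255 CPM, with a level of 4.84 near the middle of its group, so the pair did not move together in every tumour.

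The same tumours were low in mitotic genes. Of 20 mitosis genes, 16 were below vehicle in KCL-HO-1i/5-FU at an unadjusted p under 0.05, with a median of -0.98, and none passed the adjusted threshold, beside 7.84% of all genes and a median of 0.01. Mki67, the gene of the proliferation antigen Ki-67, had 79.0 ± 49.9 CPM against 178 ± 46.9 in vehicle (SD, n = 5), a difference of -1.17 ± 0.42 (SE; edgeR adjusted p = 0.158). Top2a, the topoisomerase that untangles sister chromatids, had 98.1 ± 66.8 against 140 ± 21.5 CPM, a difference of -0.51 ± 0.37. Over the 30 tumours the joint level followed the mitosis genes with r = 0.96 (Spearman's rho 0.88; r = 0.95 without the 2 tumours farthest from the median), fork genes with 0.99, nucleotide supply and replicated chromatin genes with 0.98, and the restraining genes with -0.26.

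**Figure D5:**
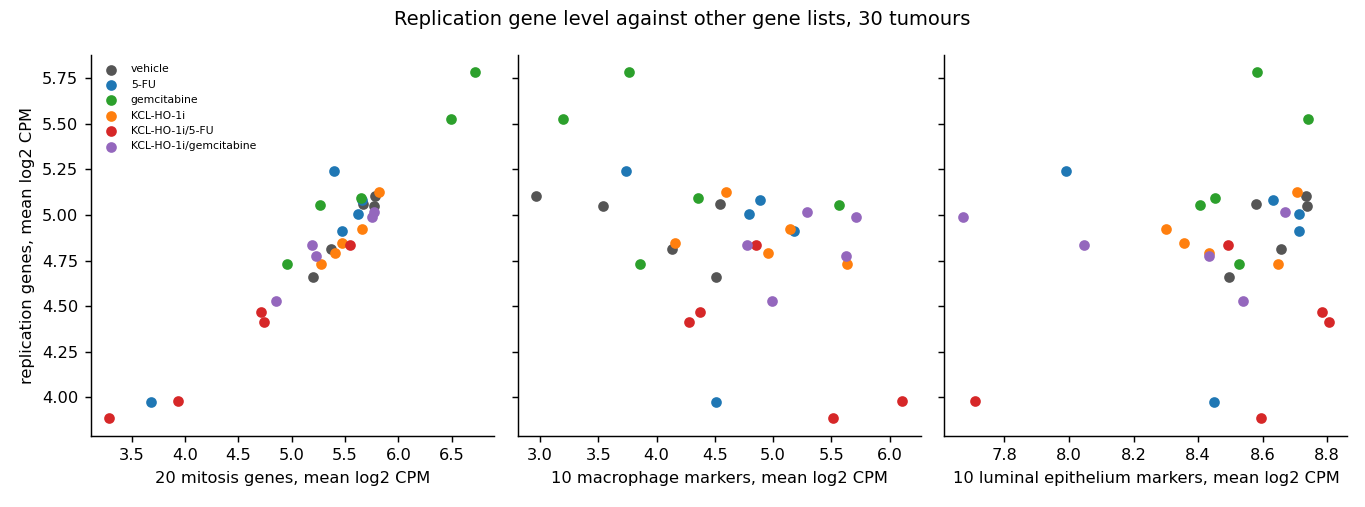
Joint level of the 42 replication genes in each tumour (y axis, mean log2 CPM) against the mean log2 CPM of 20 mitosis genes, 10 macrophage markers and 10 luminal epithelium markers, coloured by group. The tumours line up with the mitosis genes (r = 0.96) and scatter against the macrophage (r = -0.46) and luminal markers (r = 0.16).

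Markers of other cell types moved with the groups. The 10 macrophage markers averaged 3.94 ± 0.68 log2 CPM in vehicle (2.96 to 4.55), 5.03 ± 0.78 in KCL-HO-1i/5-FU (4.28 to 6.11) and 5.28 ± 0.40 in KCL-HO-1i/gemcitabine (4.78 to 5.72), and 8 of 10 were higher in KCL-HO-1i/5-FU than in vehicle at an unadjusted p under 0.05 (9.79% of all genes). The 8 fibroblast markers averaged 4.83 ± 1.21 in vehicle (2.86 to 5.84) and 6.30 ± 1.64 in KCL-HO-1i/5-FU (4.07 to 8.62), with 5 of 8 higher. The 6 myoepithelial markers averaged 3.77 ± 0.36 and 4.70 ± 1.00, with 3 of 6 higher, and the luminal markers 8.64 ± 0.10 and 8.48 ± 0.45, with 1 of 10 lower. In KCL-HO-1i/5-FU against vehicle, endothelial markers had 1 of 6 higher, and adipocyte, skeletal muscle and T cell markers none in either direction. Adipocyte markers averaged 1.19 ± 1.95 in vehicle, 1.86 ± 1.85 in KCL-HO-1i/5-FU, 4.93 ± 2.83 with KCL-HO-1i alone and 4.45 ± 3.95 in KCL-HO-1i/gemcitabine. Skeletal muscle markers averaged, in the same order, -1.10 ± 1.79, -0.605 ± 1.86, 4.78 ± 3.10 and 3.72 ± 4.29. Macrophage markers averaged 4.90 ± 0.56 with KCL-HO-1i alone. Against the joint level over 30 tumours, r was -0.46 for macrophage, -0.35 for endothelial, -0.28 for fibroblast, 0.16 for luminal, 0.08 for myoepithelial, -0.11 for adipocyte and -0.01 for skeletal muscle markers, 0.00 for T cell markers and -0.16 for the 1 B cell marker gene that passed the filter. With the macrophage level as a covariate, a choice made after seeing the data, the median difference of KCL-HO-1i/5-FU from vehicle was -0.32 with 6 of 42 genes lower at an unadjusted p under 0.05, and that of the KCL-HO-1i average -0.17 with 2. With the adipocyte and muscle levels as covariates instead, the KCL-HO-1i average had 11 of 42 genes lower at an unadjusted p under 0.05. The part of fibroblast, myoepithelial and endothelial RNA in the differences was not tested.

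The joint levels within the tumour codes shared between groups were as follows. In code 76 the 5-FU tumours were at 5.01, 5.08 and 4.91 and the gemcitabine tumours at 5.53, 5.09, 5.78 and 4.73. The gemcitabine tumours thus lay on either side of the 5-FU tumours there. Only the gemcitabine tumour at 5.06 had another code. In code 69 a 5-FU tumour was at 5.24 and a KCL-HO-1i tumour at 4.93. In code 71 a KCL-HO-1i tumour was at 5.12 and a KCL-HO-1i/gemcitabine tumour at 4.84. Code 84 held a vehicle and a KCL-HO-1i/gemcitabine tumour, at 4.81 and 4.78. Within a number, the fifth 5-FU tumour (3.97) shared code 74 with the second and the fourth KCL-HO-1i/5-FU tumours (3.88 and 4.83). Code 70 held the second and the third KCL-HO-1i tumours (4.79 and 4.73), the third KCL-HO-1i/5-FU tumour (3.98) and the second KCL-HO-1i/gemcitabine tumour (4.99), and code 65 the fifth KCL-HO-1i tumour (4.85) with the first and the fifth of KCL-HO-1i/5-FU (4.47 and 4.42). In codes 70 and 65 the KCL-HO-1i/5-FU tumours were therefore lower than the KCL-HO-1i tumours, while in code 74 they lay on either side of 5-FU. For the comparisons of vehicle with the other groups, treatment and code cannot be told apart beyond the pair in code 84. Gemcitabine and KCL-HO-1i/gemcitabine had no code in common, so treatment and code cannot be told apart in that comparison either. The fit with the code as a factor reached it only through other groups.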

How the data were processed

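RNA was taken from 30 tumours and sequenced from directional libraries. The authors deposited 1 table of expected counts (estimated counts per gene, 38.0% of values not whole) that they made, by the submitters' processing notes, with FastQC 0.11.9, STAR 2.7.9a, Salmon 1.9.0 and DESeq2 on mm10. Here counts were rounded to whole numbers, filtered by group (minimum count 10), scaled by TMM and tested with edgeR 4.0.16 (robust quasi-likelihood, 6 group means, 24 residual degrees of freedom, R 4.3.3) over 13663 genes, with Benjamini-Hochberg adjustment and a threshold of 0.05. Log2 CPM used a prior count of 2. Scripts were tested on simulated data with a dispersion set below that of these tumours. That test does not show which changes could be detected at the real spread. The 42 genes and the lists were chosen with earlier results of these data known. Genes are named with full values if they had 1 of the 2 smallest p-values of a comparison, the 3 largest or smallest spreads within groups or the 2 highest or lowest levels per kb, and Pcna, Mcm2, E2f1, Mki67, Top2a, Cdkn1a, Ccnd1 and Rrm2 in any case. Others are given as counts, or were chosen after their values were seen: Rpa1, Rpa2 and Gins4 as single genes past a count. Alternatives were DESeq2 1.42.0, limma-voom (limma 3.58.1), RLE scaling, other filters, covariates, a replicate block, the compared groups alone and each tumour left out. Same-numbered replicates did not deviate together (mean correlation 0.00284 over 75 pairs, from -0.583 to 0.48, against 0.00196 for other pairs), so the numbers do not pair the tumours.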

Additional observations from a re-analysis of the deposited data

Results flagged for a closer look

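Some tumours stood apart from the other 4 of their group by Dixon's test on log2 CPM (critical value 0.71), in 28 of 258 groups of values (10.9%), where chance gives about 1 in 20. The fifth 5-FU tumour was the low one in 15 of the 28: in the joint level at 3.97 log2 CPM (others 4.91 to 5.24), and in Cdc6 at 4.52, Cdt1 at 9.93, Gmnn at 6.37, Mcm3 at 22.4, Mcm4 at 24.8, Mcm5 at 33.9, Cdc45 at 5.85, Gins1 at 4.52, Pole at 4.37, Rpa2 at 19.6, Fen1 at 31.3, Lig1 at 16.6, Chaf1a at 19.1 and Ccne1 at 3.63 CPM. For Mcm5 the other 4 tumours held 103 to 122 CPM and for Gmnn 22.9 to 25.2 CPM. These genes moved together, so the values are not separate events.

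In vehicle, the fourth tumour was low in Orc6 (15.8 CPM), Gmnn (12.8), Pcna (136) and Rfc4 (18.9), the first was low in Cdc6 (9.77) and the third was high in Cdt1 (35.5). In KCL-HO-1i the first tumour was high in Prim2 (29.2 CPM) and Pold3 (53.4). In KCL-HO-1i/5-FU the fourth was high in Rfc1 (81.2 CPM). In KCL-HO-1i/gemcitabine the fourth was low in Pold2 (37.9 CPM) and Pcna (146), the second was low in Rfc5 (43.7) and the fifth was high in Gins4 (46.8).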

How the results depend on the processing

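Under 1 changed choice at a time, RLE scaling and other filters included, 307 single-gene values kept their direction and their side of the threshold, 10 newly passed it and 8 turned sign. With the tumour code as a factor, the median differences were -0.45 (5-FU against vehicle), -0.15 (gemcitabine against vehicle), -0.055 (KCL-HO-1i/5-FU against 5-FU), 0.074 (KCL-HO-1i/gemcitabine against gemcitabine), 0.14 (interaction with 5-FU) and 0.21 (interaction with gemcitabine). That fit also turned Mcm7 (5-FU against vehicle, -0.24), Pole and Ccne1 (KCL-HO-1i/gemcitabine against gemcitabine, 0.61 and 0.10), Pole (KCL-HO-1i/gemcitabine against KCL-HO-1i, 0.023), Ccne1 and Pole (interaction with gemcitabine, 0.087 and 1.09) and E2f1 (KCL-HO-1i average, 0.0058). The macrophage covariate, added after seeing the data, turned Pola1 (KCL-HO-1i against vehicle, 0.015). The cause was not tested. Past the adjusted threshold, DESeq2 called 3 genes of the 42 in KCL-HO-1i/5-FU against vehicle, 8 in the KCL-HO-1i average and 1 each in KCL-HO-1i/5-FU against 5-FU and against KCL-HO-1i, and limma-voom called 7 in each of the first pair. Leaving out single tumours gave 0 to 7 and 0 to 16 in that pair. Counts from changed fits stand in this section without the share of all genes in the same fit. Counts at an unadjusted p under 0.05 were 4 (gemcitabine against vehicle), 24 (KCL-HO-1i/5-FU against vehicle), 31 (average), 28 (KCL-HO-1i/5-FU against 5-FU), 15 (KCL-HO-1i/gemcitabine against gemcitabine), 23 (the 5-FU combination against the inhibitor alone), 4 (interaction with 5-FU) and 1 (with gemcitabine). With the tumour code they were, in that order, 0, 0, 0, 1, 0, 1, 1 and 0. The macrophage covariate gave 8, 6 and 2 for the first 3, 0 for KCL-HO-1i/gemcitabine against gemcitabine, and 15 and 0 for the interactions. Adipocyte and muscle covariates gave 8 for gemcitabine, 11 for the average, 3 for KCL-HO-1i/gemcitabine against gemcitabine and 13 for the 5-FU interaction, and the luminal covariate 9 and 0 for the gemcitabine background and its interaction. limma-voom gave 1, 37, 9, 16 and 0 for gemcitabine, KCL-HO-1i/5-FU against vehicle, the gemcitabine background and the interactions. The compared groups alone gave 14 for the 5-FU background and 3 for the gemcitabine interaction, DESeq2 2 and the replicate block 0 for the latter, and a mean of at least 50 counts 7 for the 5-FU interaction. KCL-HO-1i/gemcitabine differed from vehicle in 0 to 2 genes in these settings. With the replicate block none of the 42 passed the adjusted threshold in any comparison, with 26 genes at an unadjusted p under 0.05 and a median of -0.58 in KCL-HO-1i/5-FU against vehicle, and 31 and -0.34 in the KCL-HO-1i average. The compared groups alone could not be used for the average, which needs all 6. The E2F share was 24.2% in the 250 bases before the start. Depth allows no gene under 3 counts to be told from 0, a limit none of the 42 came near.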
